A study of Mus musculus with 56 samples.

Results

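Gfi1 and Gfi1b are paralogous zinc-finger repressors, and their accessible regions were followed through 28 pairs of mouse granulocyte-monocyte progenitor (GMP) clones. The members are the peaks centred within 60 kb of the annotated 5' end of either gene: 39 peaks around Gfi1 and 42 around Gfi1b, or 81 of the 297361 peaks of the series. Accessibility came from bulk ATAC-seq of 56 libraries with 1000 cells each, an assay that tags DNA not packed in nucleosomes by inserting adapters into it. All clones were of Tet2 fl/fl origin and were immortalised with Hoxb8 fused to an estrogen receptor domain. All were kept in 0.5 µM beta-estradiol, whose withdrawal lets them differentiate. Each clone gave a Tet2 KO line, made with Cre, and a control line that was given GFP, both carried by an integrase-defective lentivirus at an MOI of 200. The deletion of Tet2, which encodes a methylcytosine dioxygenase, was taken from the labels and not checked in these counts. No clone was grown in both cytokines, so clone origin and cytokine cannot be told apart. There were 24 clones in SCF (stem cell factor, 100 ng/ml) and 4, clones 19 to 22, in GM-CSF (10 ng/ml). The study describes the GM-CSF clones as arrested at a more mature stage, so cytokine and stage cannot be told apart either. For clones 20, 21 and 22 the title names SCF, whereas their treatment label and the design text give GM-CSF, which was used here.

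Both proteins bind DNA through their zinc fingers and carry a short amino-terminal SNAG domain that recruits the demethylase LSD1 with CoREST and histone deacetylases, which silences the genes they bind. GFI1 favours granulocytic over monocytic fate and restrains stem cell proliferation, whereas GFI1B is required for red cell and platelet formation and limits stem cell expansion. The paralogues repress each other and themselves in blood cells, and upstream and downstream enhancers bound by GATA, TAL1, RUNX and ETS factors control them. In bulk cells, fewer open cells and less opening per cell cannot be told apart. A peak reports accessibility, not transcription.

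Between cytokines in control lines, 1 of the 9 Gfi1 peaks tested was called higher in GM-CSF and 1 lower. Around Gfi1b 0 of 12 were called higher and 3 lower, where 4.51% of all tested peaks were higher and 6.50% lower. In GM-CSF control lines the Gfi1 peak 33.2 kb upstream of the gene had 1 count over 4 libraries, and the peak at the start of a shorter Gfi1 transcript was more open. Around Gfi1b, the promoter and a pair of peaks 22.6 and 23.9 kb downstream of the 5' end were less open. Of these called peaks, only those 33.2 kb upstream of Gfi1 and 22.6 kb downstream at Gfi1b kept their call without GM-CSF clone 22. In SCF clones, Tet2 KO gave no called peak among the 24 members tested, where 0.146% of all tested peaks were higher and 0.0113% lower. Single peaks were not tested for KO in the GM-CSF clones.

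The sequences of the regions that carry these differences follow, with those of the neighbours that differed less for comparison. Each is from the genome of GRCm38 (mm10), written 5' to 3' on the minus strand, the strand of both genes, and covers the central 200 bases of the 301 bp peak. Capitals mark matches on either strand to 9 short motifs. The core of the GFI1 site was searched as AATCAC. For RUNX factors the letters were TGTGGT, and for GATA factors either AGATAA or, as a separate motif, TGATAA. The ETS motif of the PU.1 type was GAGGAAG, and that of C/EBP factors was TTGCNNAA. The homeobox motifs were TGACAG for MEIS and, for HOX with PBX, TGATTNAT. The E-box of helix-loop-helix factors was CAGCTG. Positive distances lie downstream of the gene's 5' end in the direction of transcription and negative ones upstream.
Gfi1 -33.2 kb, chr5:107759092-107759291, intron of Evi5, lower in GM-CSF: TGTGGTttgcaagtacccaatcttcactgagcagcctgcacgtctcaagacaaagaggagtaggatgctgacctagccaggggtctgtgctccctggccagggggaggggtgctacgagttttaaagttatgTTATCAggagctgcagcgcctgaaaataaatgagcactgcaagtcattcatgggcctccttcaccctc
Gfi1 -23.6 kb, chr5:107749555-107749754, intron of Evi5, not called: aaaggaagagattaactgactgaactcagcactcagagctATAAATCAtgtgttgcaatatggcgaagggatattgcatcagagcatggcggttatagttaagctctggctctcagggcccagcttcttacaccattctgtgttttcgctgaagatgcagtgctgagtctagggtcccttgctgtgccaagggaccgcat
Gfi1b 22.6 kb, chr2:28599315-28599514, intergenic, lower in GM-CSF: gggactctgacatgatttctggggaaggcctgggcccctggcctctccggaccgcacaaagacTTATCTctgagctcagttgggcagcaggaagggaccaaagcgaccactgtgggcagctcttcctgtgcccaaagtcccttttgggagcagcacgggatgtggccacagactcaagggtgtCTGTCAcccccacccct
Gfi1b 23.9 kb, chr2:28597962-28598161, intergenic, lower in GM-CSF: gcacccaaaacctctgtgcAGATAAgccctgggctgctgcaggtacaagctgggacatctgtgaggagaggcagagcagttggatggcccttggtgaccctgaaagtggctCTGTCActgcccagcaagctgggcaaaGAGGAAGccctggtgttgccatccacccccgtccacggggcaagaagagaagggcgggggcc
Gfi1b 3.1 kb, chr2:28618774-28618973, intron of Gfi1b, not called: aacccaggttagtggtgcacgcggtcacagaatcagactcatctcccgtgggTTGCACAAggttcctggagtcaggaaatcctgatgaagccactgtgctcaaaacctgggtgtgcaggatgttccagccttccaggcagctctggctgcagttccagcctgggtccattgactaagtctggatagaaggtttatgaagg

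The 150 bases before 2 transcript starts are shown because promoter peaks at these starts changed. The first lies before Gfi1-201, the shorter Gfi1 transcript, and the second before Gfi1b-204, the longer Gfi1b transcript. Most of the second lies outside the changed peak at 0.1 kb, which ends at chr2:28621993.
upstream of Gfi1-201, chr5:107724344-107724493: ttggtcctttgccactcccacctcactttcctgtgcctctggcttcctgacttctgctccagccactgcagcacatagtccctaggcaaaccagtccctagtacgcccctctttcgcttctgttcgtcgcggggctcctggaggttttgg
upstream of Gfi1b-204, chr2:28621983-28622132: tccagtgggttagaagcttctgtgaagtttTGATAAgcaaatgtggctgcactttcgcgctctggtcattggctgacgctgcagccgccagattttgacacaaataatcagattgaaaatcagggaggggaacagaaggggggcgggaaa

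Both distal Gfi1b regions held an AGATAA and a TGACAG match, and the 23.9 kb region also held GAGGAAG. The letters AGATAA occurred in 12.6% and TGACAG in 24.3% of all 297361 peaks. These shares and those below count matches over whole 301 bp peaks, which are longer than the stretches shown. The stretch before Gfi1b-204 held TGATAA, found in 9.90% of all peaks, and that before Gfi1-201 held none of the motifs. This TGATAA lies outside the Gfi1b promoter peak at 0.1 kb, which held neither AGATAA nor TGATAA. The -33.2 kb region held TGTGGT, a motif found in 28.3% of all peaks, and TGATAA. Over their whole 301 bp, 4 of the 39 Gfi1 peaks and 2 of the 42 Gfi1b peaks held the GFI1 core AATCAC, against 10.6% of all peaks. A match is a string of letters and not a bound site.

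Gfi1 (ENSMUSG00000029275.18) lies at chr5:107716657-107726036 and Gfi1b (ENSMUSG00000026815.14) at chr2:28609450-28621982. The Gfi1 peaks from -23.6 kb upstream onwards lie in introns of Evi5, which encodes a GTPase-activating protein, and the downstream ones around the noncoding RNA genes 4930428O21Rik and Gm26692. Upstream of Gfi1b lies Tsc1, an inhibitor of mTOR signalling, and downstream lie Gtf3c5, a subunit of a polymerase III factor, and Cel, a lipase gene. Of the Gfi1 peaks, 21 were intronic, 9 intergenic, 4 at a promoter, 3 on coding exons and 2 on noncoding exons. Of the Gfi1b peaks, 18 were intergenic, 12 intronic, 7 at a promoter, 4 on coding exons and 1 on an untranslated exon. The promoter peaks of Tsc1, Gtf3c5 and Cel are the 3 Gfi1b members at the promoter of another coding gene.

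Most members were weak. Mean accessibility over the 56 libraries, in CPM (counts scaled to 1e6 per library), ranged from 0.529 to 33.4 around Gfi1 and from 0.750 to 34.9 around Gfi1b, with medians of 1.80 and 1.79. In each region 32 peaks had under 5 CPM. The 8 peaks with the highest mean held 75.4% of the summed accessibility around Gfi1 and 68.7% around Gfi1b. The highest Gfi1 peak was the -23.6 kb peak, followed by the promoter peak at 0.5 kb (chr5:107725419-107725719) and the 26.9 kb peak (chr5:107699005-107699305) on an exon of 4930428O21Rik. The highest peak of the Gfi1b region was the Tsc1 promoter at -19.1 kb, followed by the 22.6 kb peak, the Gtf3c5 promoter at 38.9 kb and the Gfi1b promoter peak at 0.1 kb (chr2:28621693-28621993).

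**Figure D1:**
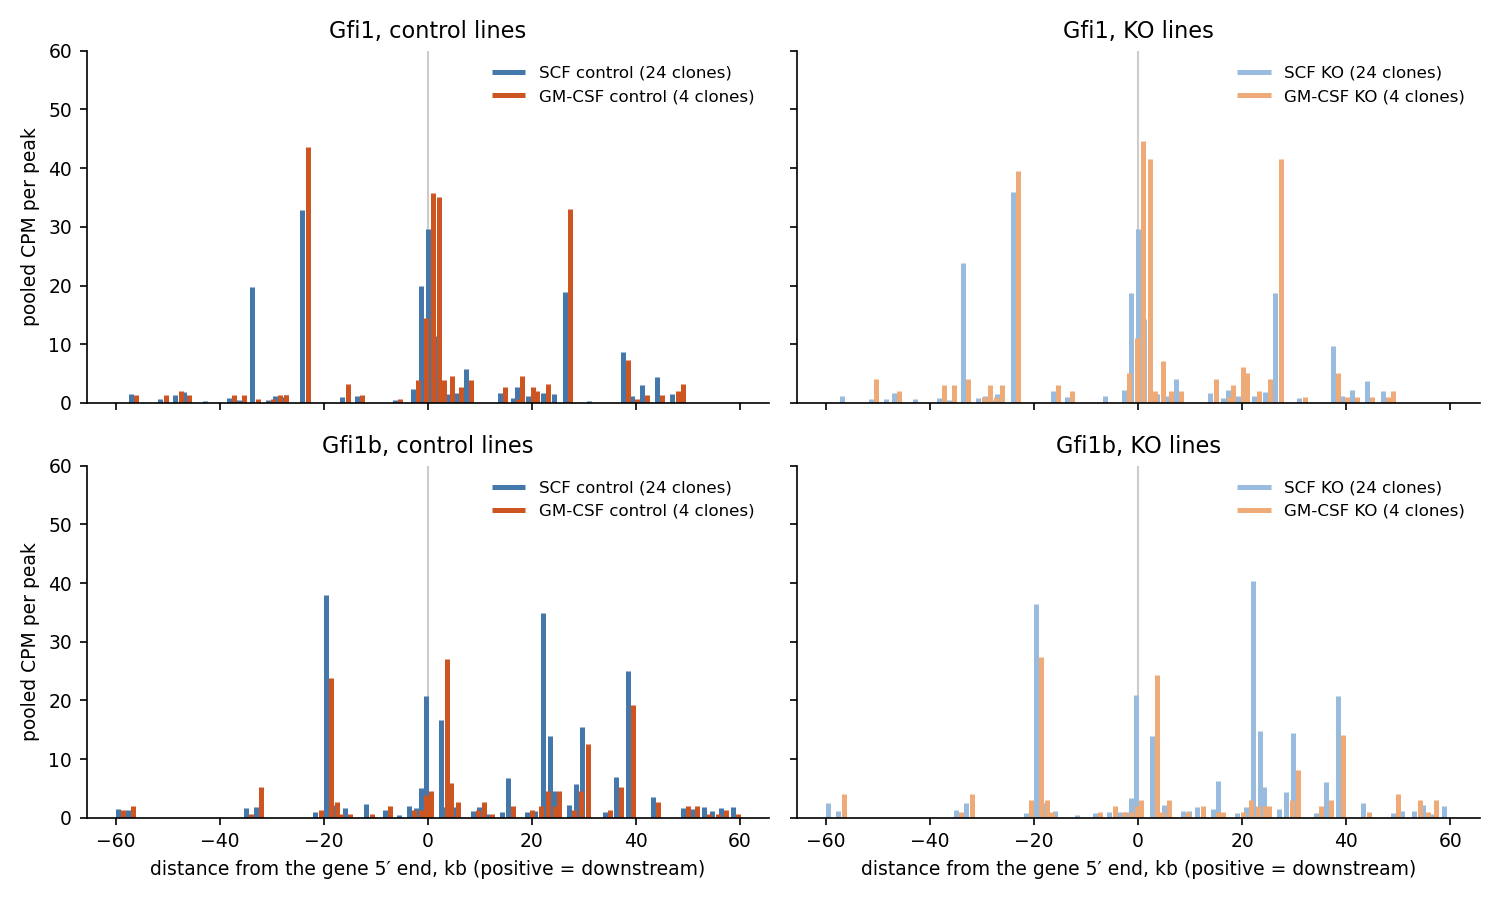
Pooled CPM of every member peak (counts summed over the libraries of a group, scaled to the group's total) against its distance from the 5' end of Gfi1 (top) or Gfi1b (bottom), in control lines (left) and Tet2 KO lines (right), with SCF in blue and GM-CSF in orange. Bars of a group are offset by 0.5 kb, and the SCF bars at -33.2 kb of Gfi1 and at 22.6 kb of Gfi1b have almost no GM-CSF counterpart.

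Total counts ranged from 39379 to 1079233 per library. The GM-CSF clones 19 and 20 were among the shallowest, with 114885 and 88234 counts in their control lines and 40876 and 39379 in their KO lines. Each count in these libraries was worth 8.70 CPM or more. SCF control line 4 was also shallow, with 102302 counts. Of 564 within-group pairs of libraries, chi-square tests on locus counts found no difference in 3 (unadjusted p of 0.228 or above): clones 19 and 20 in both lines and the KO lines of clones 13 and 16. The labels name them as separate clones, and whether the same library was deposited under both names was not settled. Against the control line of clone 19, those of clones 21 and 22 differed by chi-square tests when thinned to the depth of clone 20 (p = 1.41e-12 and 9.58e-08). For the KO lines no such difference was found (p = 0.231 and 0.315), so the KO pair cannot show whether clones 19 and 20 are alike. The tests kept them apart, means of locus CPM count clones 19 and 20 as 1 sample, and results with them summed or with clone 13 left out are given in the closing section. P-values between cytokines measure the spread between these clones of immortalised cells together with that between libraries, as each line gave a single library. P-values of the KO tests paired by clone measure the spread of the differences between sister lines. The X chromosome share of counts, relative to the other libraries, was 0.714 to 0.840 in GM-CSF libraries and reached 1.09 in SCF libraries, and SCF clones 23 to 29 were low like the GM-CSF clones. The study's results describe the clones as coming from a single Tet2 fl/fl mouse, whereas its reporting summary names lines from male and female mice. No source read here gives the sex of a clone. Against clones 23 to 29 alone, the 5 peaks called below stayed called, and the Gfi1 locus, also called below, did not (adjusted p = 0.0976 by edgeR). Whether sex or origin had a part in these results was not tested.

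The first comparison asked how the regions differ between clones derived in GM-CSF and in SCF, in control lines. Peaks with at least 50 counts over the libraries were tested with the edgeR quasi-likelihood test, with adjusted p at or under 0.01 as the limit. Of the 81 members, 21 passed this filter, 9 around Gfi1 and 12 around Gfi1b. Around Gfi1, 1 peak was higher and 1 lower in GM-CSF, and around Gfi1b 3 were lower and 0 higher. Over all 36026 tested peaks, 4.51% were higher and 6.50% lower. The members' median log2 fold change (GM-CSF over SCF) was -0.17 around Gfi1 and -0.28 around Gfi1b, and that of all tested peaks was -0.08. Since 24 of the 28 libraries are SCF, the filter favours peaks open in SCF. The 60 untested peaks, 30 in each region, had at most 3.49 pooled CPM in SCF controls and 5.95 in GM-CSF controls.

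At the -33.2 kb peak of Gfi1 (chr5:107759041-107759341), 3 GM-CSF control lines had 0 counts and clone 22 had 1, or 1.30 CPM. In SCF controls the peak had 0 CPM at the lowest, 15.7 at the median and 54.4 at the highest. The only SCF control without a count was clone 4, a shallow library with 102302 counts in all. The other SCF controls, 23 of 24, exceeded every GM-CSF control, so the groups touched at 1 library. The log2 fold change was -4.33 ± 0.72 (SE, adjusted p = 1.46e-07 by edgeR). Pooled, SCF controls had 214 counts and GM-CSF controls 1, a ratio of 0.0336 (GM-CSF over SCF) with a 95% counting interval from 0.000847 to 0.189. Against SCF clones 23 to 29 alone the log2 fold change was -4.74 ± 0.72, and it stayed called under each of the 12 alternatives run.

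The neighbouring -23.6 kb peak (chr5:107749504-107749804), which also lies in an intron of Evi5, was open in both cytokines. It had 43.5, 11.3, 58.9 and 36.5 CPM in GM-CSF control lines 19, 20, 21 and 22, and 4.82 to 58.6 with a median of 32.1 in SCF controls. The values overlapped throughout, and the log2 fold change of 0.49 ± 0.23 (adjusted p = 0.114 by edgeR) was not called. Of the counts in the -33.2 and -23.6 kb peaks together, the -33.2 kb peak held 37.4% in SCF controls (95% exact binomial interval 33.4 to 41.5, 572 counts) and 1.49% in GM-CSF controls (0.0378 to 8.04, 67 counts). Both peaks were counted in the same libraries, so the share needs no scaling to library totals. The counts were pooled over a group, so deeper libraries weigh more, and the interval covers counting error and not the spread between clones.

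Of the peaks at the 2 Gfi1 promoters, the downstream one was called. Gfi1-202 and Gfi1-203 start at 107725805 and Gfi1-201 at 107724343, so the 0.5 and 1.7 kb peaks lie at separate starts. The 1.7 kb peak (chr5:107724165-107724465) had 8.70, 34.0, 29.4 and 43.0 CPM in GM-CSF control lines 19, 20, 21 and 22. In SCF controls it ranged from 0 to 23.6 with a median of 12.6. Only clone 19, with 1 count, lay among the SCF values. The log2 fold change was 1.62 ± 0.30 (adjusted p = 2.57e-06 by edgeR). Without clone 22, the deepest GM-CSF control, it was 1.19 with an adjusted p of 0.0636 and no longer called.

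The 0.5 kb peak had 0, 22.7, 38.6 and 40.4 CPM in GM-CSF control lines 19, 20, 21 and 22 and 15.7 to 57.7 with a median of 29.6 in SCF controls. The groups overlapped, with a log2 fold change of 0.33 ± 0.24 (adjusted p = 0.384). Of the counts at both starts, the shorter transcript's peak held 27.9% in SCF controls (95% exact binomial interval 23.8 to 32.3, 448 counts) and 49.5% in GM-CSF controls (39.7 to 59.4, 107 counts).

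Other strong Gfi1 peaks were not called in control lines. The 26.9 kb peak had 26.1, 11.3, 14.7 and 49.6 CPM in GM-CSF control lines 19, 20, 21 and 22, with clone 22 far above the others, and 0 to 40.7 with a median of 19.2 in SCF controls. Its log2 fold change of 0.83 ± 0.27 had an adjusted p of 0.0181 by edgeR, outside the limit of 0.01. The -0.8 kb peak, on an exon of the antisense transcript A430072P03Rik, differed by -0.32 ± 0.34 (adjusted p = 0.590). The 38.0 kb peak, at the promoter of Gm26692, differed by -0.17 ± 0.50 (adjusted p = 0.862), and the 7.8 kb intron peak by -0.40 ± 0.62 (adjusted p = 0.722). The 44.5 kb peak, the remaining tested one, had 48 counts in SCF and 2 in GM-CSF controls (adjusted p = 0.255).

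**Figure D2:**
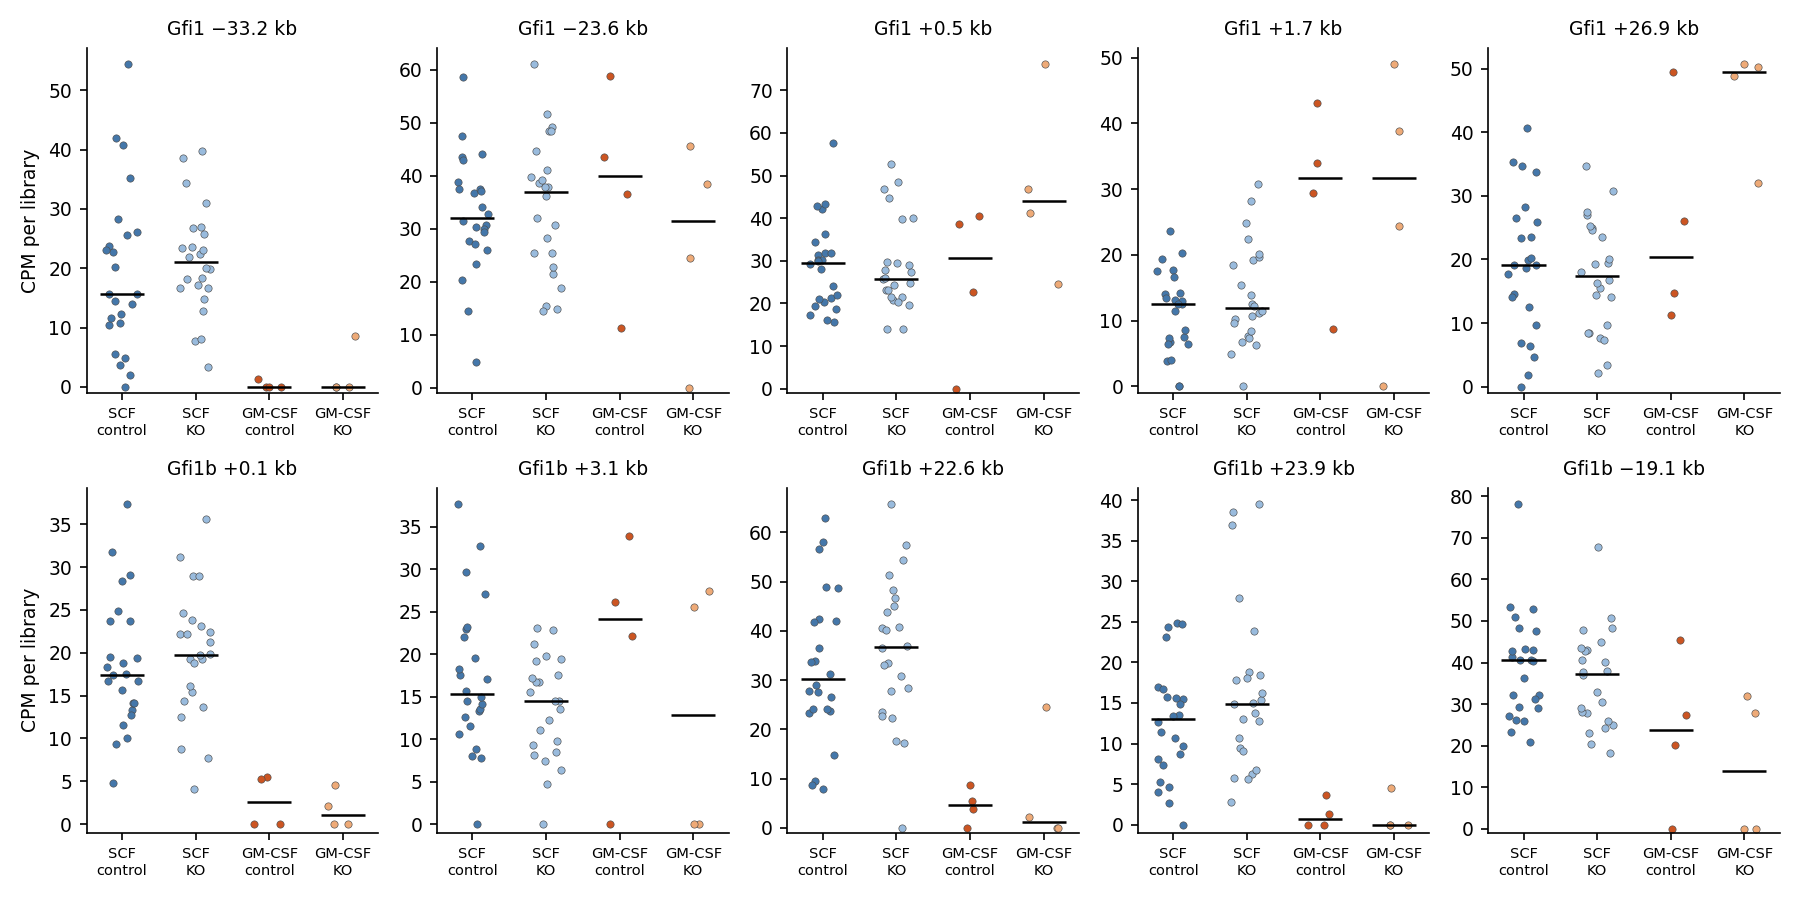
CPM in every library (points) at 5 Gfi1 peaks (top) and 5 peaks of the Gfi1b region (bottom), by cytokine and line, with the median of each group as a black bar. At Gfi1 -33.2 kb all GM-CSF controls lie at or under 1.30 CPM, and at Gfi1b 22.6 kb the SCF controls have a median of 30.1.

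Gfi1b was less accessible in GM-CSF at its promoter and at the downstream pair of peaks. The 22.6 kb peak (chr2:28599264-28599564) had 8.70, 0, 5.52 and 3.91 CPM in GM-CSF control lines 19, 20, 21 and 22, from 1, 0, 3 and 3 counts. SCF controls ranged from 7.85 to 62.8 with a median of 30.1. The groups overlapped only at the value of clone 19, where 1 count is worth 8.70 CPM, and 22 of 24 SCF controls lay above every GM-CSF control. The log2 fold change was -2.73 ± 0.41 (adjusted p = 6.09e-09 by edgeR), and the peak stayed called under all 12 alternatives run.

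The 23.9 kb peak (chr2:28597911-28598211), next to it on the side away from the gene, had 0, 0, 3.68 and 1.30 CPM in the GM-CSF control lines and 0 to 24.9 with a median of 13.0 in SCF controls. SCF controls were higher in 22 of 24 libraries, with a log2 fold change of -2.55 ± 0.63 (adjusted p = 0.000915 by edgeR). With 3 counts in GM-CSF, the pooled ratio was 0.143 (95% counting interval 0.0291 to 0.426). Without clone 22 the adjusted p was 0.0621, and with DESeq2 0.0168. The 24.7 kb peak, next in line, had 49 counts in SCF and 7 in GM-CSF controls and did not differ (0.16 ± 0.63, adjusted p = 0.899).

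At the Gfi1b promoter, the 0.1 kb peak had 0, 0, 5.52 and 5.22 CPM in GM-CSF control lines 19, 20, 21 and 22. SCF controls ranged from 4.82 to 37.4 with a median of 17.4, and 23 of 24 lay above every GM-CSF control. The log2 fold change was -1.99 ± 0.47 (adjusted p = 0.000398 by edgeR), with adjusted p of 0.0151 without clone 22 and 0.0110 with DESeq2. The intron peak at 3.1 kb (chr2:28618723-28619023) had 26.1, 0, 22.1 and 33.9 CPM in the GM-CSF control lines, against 0 to 37.7 with a median of 15.3 in SCF. It was not called (0.73 ± 0.30, adjusted p = 0.0684 by edgeR). Of the counts in the promoter and this intron peak, the promoter held 55.4% in SCF controls (95% exact binomial interval 50.4 to 60.3, 408 counts) and 14.6% in GM-CSF controls (6.07 to 27.8, 48 counts).

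The promoters of the neighbours were not called. The Tsc1 promoter differed by -0.59 ± 0.26 (adjusted p = 0.102) and the Gtf3c5 promoter by -0.29 ± 0.30 (adjusted p = 0.573). The remaining tested peaks, at 36.6, 29.0 and -0.8 kb, had adjusted p of 0.804 or above. The intergenic 30.2 kb peak differed by -0.22 ± 0.38 (adjusted p = 0.760). The 15.9 kb peak, 6.71 pooled CPM in SCF and 1.98 in GM-CSF controls, had a log2 fold change of -1.54 ± 0.73 that was not called (adjusted p = 0.130).

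The KO lines gave the comparison again in separate libraries of the same clones, so they are not independent of the control lines. In them, 17 members were tested, and around Gfi1 2 were higher and 1 lower in GM-CSF, and around Gfi1b 3 lower, against 2.85% higher and 4.98% lower over all 27403 tested peaks. The 5 peaks called in control lines were called in KO lines in the same direction, and the 26.9 kb peak of Gfi1 was added. It had 48.9, 50.8, 32.0 and 50.2 CPM in GM-CSF KO lines 19, 20, 21 and 22 and 2.09 to 34.7 with a median of 17.4 in SCF KO lines (1.27 ± 0.31, adjusted p = 0.000871 by edgeR). Of the GM-CSF values, 3 lay above all SCF values, and those of clones 19 and 20 came from 2 counts each.

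At the -33.2 kb peak, GM-CSF KO line 21 had 4 counts (8.53 CPM) and the other 3 lines had 0, against a median of 21.0 in SCF KO lines (3.40 to 39.8). The log2 fold change was -2.30 ± 0.57 (adjusted p = 0.00117 by edgeR). The 1.7 kb peak had 24.5, 0, 49.1 and 38.8 CPM in GM-CSF KO lines 19, 20, 21 and 22 against a median of 11.8 in SCF (1.62 ± 0.32, adjusted p = 3.22e-05). Around Gfi1b, the 22.6 kb peak had 1, 0, 0 and 1 counts in the GM-CSF KO lines against a median of 36.8 CPM in SCF (-3.94 ± 0.58, adjusted p = 4.66e-09). The 0.1 kb peak had 0, 0, 1 and 2 counts (-2.52 ± 0.62, adjusted p = 0.00125) and the 23.9 kb peak 0, 0, 0 and 2 (-2.57 ± 0.74, adjusted p = 0.00725). The differences between the control and KO estimates were not tested.

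**Figure D3:**
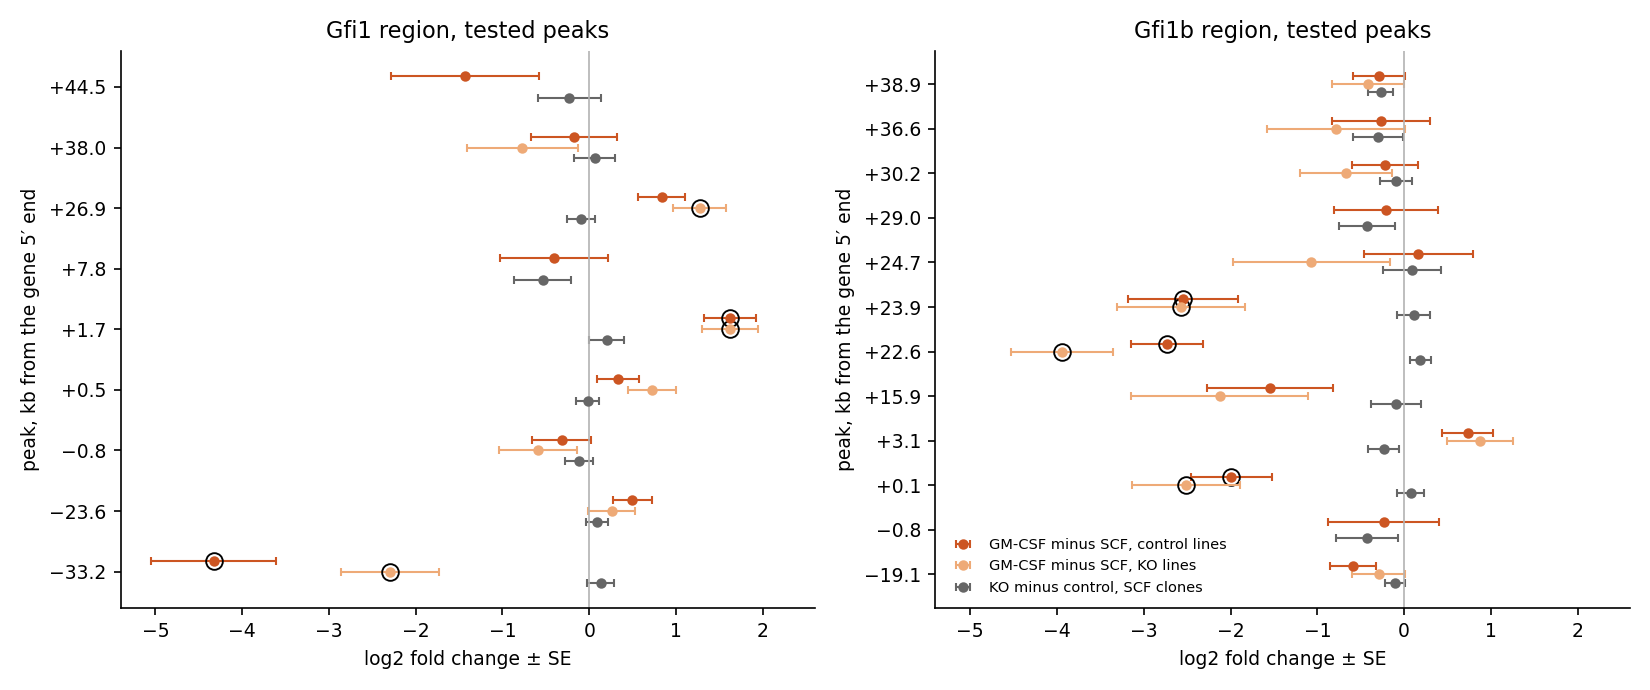
Log2 fold change with SE (horizontal bars) of the peaks tested in control lines, by distance from the 5' end of Gfi1 (left) and Gfi1b (right), for GM-CSF minus SCF in control lines (dark orange), the same in KO lines (light orange) and KO minus control in SCF clones (grey). Black circles mark an adjusted p at or under 0.01, and the grey values lie between -0.54 and 0.20.

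Counts were then summed over all peaks within 10 kb of the 5' end, which is 9 peaks for Gfi1 and 10 for Gfi1b. The Gfi1 sum took in the called 1.7 kb peak and the Gfi1b sum the called 0.1 kb peak, each with peaks not called. The Gfi1 locus had 73.6 ± 22.6 CPM in SCF controls (SD, n = 24) and 96.0 ± 25.7 in GM-CSF controls (n = 3, with clones 19 and 20 averaged), and the values overlapped. Its log2 fold change was 0.48 ± 0.15 (adjusted p = 0.0194 by edgeR, limit 0.05), where 5.77% of 12956 loci were higher and 6.68% lower. Leaving out clone 21 or clone 22 ended the call (adjusted p = 0.101 and 0.415), as did DESeq2 (0.114), library totals without TMM scaling (0.0605) and SCF clones 23 to 29 alone (0.0976). In KO lines the locus had 73.2 ± 17.3 CPM in SCF and 101 ± 38.0 in GM-CSF (0.70 ± 0.17, adjusted p = 0.00214), where 4.23% of loci were higher and 5.61% lower, and without clone 21 the adjusted p was 0.431.

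The Gfi1b locus had 51.3 ± 14.1 CPM in SCF controls and 43.9 ± 18.1 in GM-CSF controls, which did not differ detectably (log2 -0.07 ± 0.20, adjusted p = 0.874). Within 1 kb of the 5' end, where 2 peaks lie, the log2 fold change was -1.49 ± 0.38 (adjusted p = 0.00329), and within 60 kb, without the 3 promoters of other genes, -0.62 ± 0.14 (adjusted p = 0.000362). In KO lines the values were -0.22 ± 0.25 (adjusted p = 0.652), -2.04 ± 0.53 (adjusted p = 0.00403) and -0.89 ± 0.17 (adjusted p = 4.83e-05). The wide window takes in the 22.6 and 23.9 kb peaks, and the narrow one leaves out the 3.1 kb peak. What part these peaks had in the differences between windows was not tested. At Gfi1 the same windows gave 0.08 ± 0.19 (adjusted p = 0.854) and 0.16 ± 0.12 (adjusted p = 0.420) in control lines, neither of them called.

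The 2 loci were then set against each other within each library. Per peak, Gfi1 was above Gfi1b by a mean of 0.60 ± 0.68 on the log2 scale in SCF controls (SD, n = 24) and higher in 20 of 24 lines, and by 1.35 ± 0.98 in GM-CSF controls (n = 4), where it was higher in all 4 lines. The difference of 0.75 had a two-sided exact permutation p of 0.0743 over 20475 divisions of the 28 clones. In KO lines, Gfi1 was above Gfi1b by 0.72 ± 0.52 in SCF (22 of 24 lines) and by 2.06 ± 1.04 in GM-CSF (4 of 4), a difference of 1.34 (exact permutation p = 0.00132). The highest GM-CSF KO value, 3.59 in clone 19, came from 2 counts at Gfi1 and 0 at Gfi1b and so depends on the prior count. Without clone 19 the difference in KO lines was 0.83 (exact permutation p = 0.0123), and with clones 19 and 20 summed it was 1.01 (exact permutation p = 0.00444). With clones 19 and 20 summed, the difference in control lines was 0.59 (exact permutation p = 0.148), and without clone 20 it was 0.28 (exact permutation p = 0.478). Within 1 kb the difference in control lines was 1.53 (exact permutation p = 0.000195). There Gfi1b had 0 counts in GM-CSF control lines 19 and 20, so their values depend on the prior count.

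The second comparison asked what Tet2 deletion did to these regions in SCF, with sister lines paired by clone. Of the 81 members, 24 were tested, and 0 were called by the edgeR quasi-likelihood test, at adjusted p of 0.698 or above, where KO lines were higher at 0.146% and lower at 0.0113% of all 53326 tested peaks. At an unadjusted p under 0.05, 0 members passed by edgeR and 1 by DESeq2, which gave no adjusted p to any of them. The log2 fold changes lay between -0.54 and 0.20 around Gfi1 and between -0.43 and 0.19 around Gfi1b, and their medians were -0.10 and -0.11, beside -0.09 over all tested peaks. The 22.6 kb peak of Gfi1b was higher in KO in 16 of 24 pairs (0.19 ± 0.12, adjusted p = 0.776) and the -23.6 kb peak of Gfi1 in 14 of 24 (0.09 ± 0.12, adjusted p = 0.932).

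At the loci, Gfi1 had 73.6 ± 22.6 CPM in controls and 73.2 ± 17.3 in KO lines (SD, n = 24, log2 -0.05 ± 0.08, adjusted p = 0.813 by edgeR). Gfi1b had 51.3 ± 14.1 and 48.0 ± 12.4 (log2 -0.08 ± 0.10, adjusted p = 0.721). Over 10427 loci, 4.65% were higher and 1.52% lower in KO lines. The Gfi1 minus Gfi1b difference moved by 0.12 ± 0.80 (SD over 24 pairs, higher in 12) between control and KO lines, with a two-sided sign-flip permutation p of 0.487.

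In the 4 GM-CSF clones, the Gfi1 locus had 5, 8, 57 and 89 counts in control lines 19, 20, 21 and 22 and 2, 3, 65 and 44 in their KO lines. Gfi1b had 4, 1, 30 and 41 counts in controls and 0, 1, 19 and 19 in KO lines. The KO effect was 0.13 ± 0.19 at Gfi1 (adjusted p = 0.987 by edgeR) and -0.34 ± 0.29 at Gfi1b (adjusted p = 0.966). Its difference from the effect in SCF was 0.16 ± 0.21 and -0.28 ± 0.31 (adjusted p = 0.999 for both). Of 12756 loci, 0 were called for either by edgeR or DESeq2, and 688 and 540 had an unadjusted edgeR p under 0.05.

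**Figure D4:**
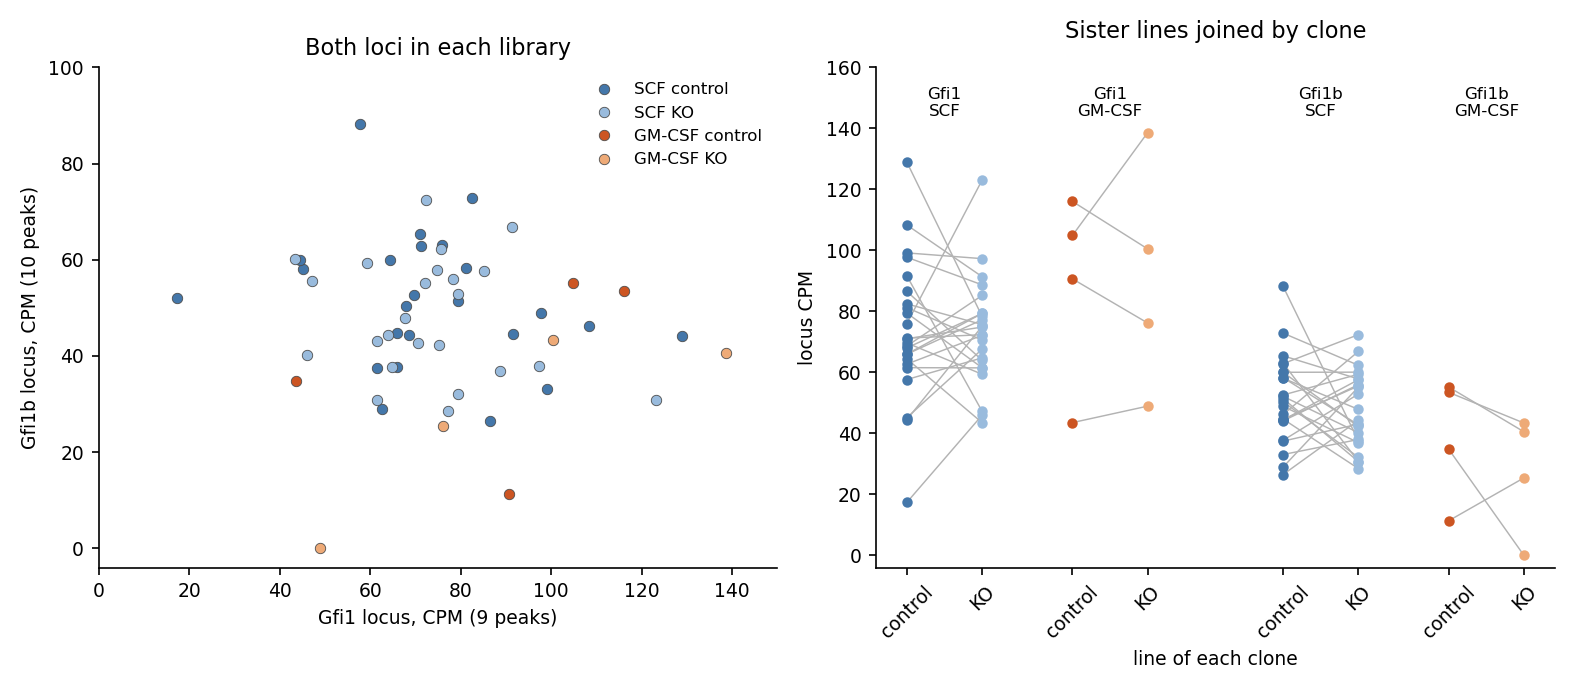
Left, CPM of the Gfi1 locus (9 peaks within 10 kb) against that of the Gfi1b locus (10 peaks) in each of the 56 libraries, coloured by group. Right, the same values with the control and KO line of each clone joined. The lowest Gfi1 value, 17.4 CPM, is control line 27 with 2 counts.

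Libraries of SCF clones varied by more than counting alone predicts at some members, which was not tested per peak. Each line gave a single library, so within a line, spread between clones and between libraries cannot be told apart. Over the 24 control lines, the variance of the counts divided by that expected from counting alone was 3.90 at the -33.2 kb peak of Gfi1, 2.78 at the 22.6 kb peak of Gfi1b and 2.13 at the 26.9 kb peak of Gfi1, and it was at or under 1.60 at the other 13 strong peaks. In KO lines these values were 1.41, 2.14 and 1.45, and the other 13 reached 1.77, at the 23.9 kb peak of Gfi1b. At -33.2 kb the control lines of clones 14, 15 and 16 had 2, 1 and 1 counts (3.71, 4.82 and 2.02 CPM), whereas their KO lines had 22.0, 12.7 and 23.0 CPM. Clones 24 and 29 were highest in both lines, with 54.4 and 41.9 CPM in controls and 39.8 and 38.6 in KO lines. As a description over 24 clones, whose libraries ranged widely in depth, log2 CPM of the sister lines had an r of 0.41 at the -33.2 kb peak, 0.64 at the 26.9 kb peak and 0.38 at the 22.6 kb peak, and from -0.17 to 0.42 at the other 13.

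Locus levels of sister lines were weakly related. For Gfi1, Pearson's r was 0.41 (permutation p = 0.0546, adjusted over 3 correlations 0.164) and Spearman's rho 0.37 (permutation p = 0.0801, adjusted 0.186) over 24 SCF clones. Without clones 13 and 27, the farthest from the median, r was 0.17, so Pearson's r rested on these clones, while rho was 0.32 (permutation p = 0.148). Pearson's r was 0.04 within clones 1 to 18 (n = 17) and 0.99 within clones 23 to 29 (n = 7), or 0.93 without clone 27 (exact permutation p = 0.0111, n = 6). For Gfi1b, r was 0.13 (permutation p = 0.560, adjusted 0.560) and rho 0.07 (permutation p = 0.739, adjusted 0.739), with r of -0.10 within clones 1 to 18, 0.52 within 23 to 29 and 0.16 without clones 5 and 12.

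Across SCF control lines, Gfi1 and Gfi1b had an r of -0.30 (permutation p = 0.153, adjusted 0.229) and a rho of -0.32 (permutation p = 0.124, adjusted 0.186), which was not past the threshold. It was -0.35 without clones 13 and 27, -0.25 within clones 1 to 18, -0.42 within clones 23 to 29 and -0.21 in KO lines. In the 60 kb window r was 0.02. The loci most like Gfi1 over the 24 clones, among 6280 loci over 1 Mb away with at least the mean CPM of the lower paralogue, were Anln (r = 0.80), Srsf10 (0.74), Gm49776 (0.71), Gpd1 (0.68) and Cox14 (0.68), the last pair being neighbours on chromosome 15. For Gfi1b they were Gtpbp3 (r = 0.58), Odf3b (0.58), Apof (0.57), Ptprcap (0.57) and Mrps23 (0.56) among 6283. The 99th percentile of r over these loci was 0.54 for Gfi1 and 0.38 for Gfi1b, and such top values are chosen as the highest of many.

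Genes that act with or upstream of the paralogues were read from lists, as loci in control lines. The share of all loci to read the counts of these and the following lists against was 5.77% higher and 6.68% lower in control lines. Of 13 tested partners in the LSD1 and CoREST complexes, 0 were called by edgeR and 7 had an unadjusted p under 0.05 (median log2 fold change -0.04, all loci -0.01). Of 14 tested regulators of Gfi1 and Gfi1b, 7 were lower in GM-CSF and 1 higher, with a median log2 fold change of -0.42. Gata2, a zinc-finger activator of stem and mast cell genes, was changed by -1.64 ± 0.21 on the log2 scale (adjusted p = 2.54e-10 by edgeR). The homeobox gene Meis1 changed by -2.10 ± 0.29 (adjusted p = 5.76e-09), and Tal1, a partner of GATA factors, by -0.92 ± 0.19 (adjusted p = 0.000106). Spi1, which encodes PU.1, changed by 0.60 ± 0.15 (adjusted p = 0.00170).

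Of 23 tested loci reported as targets of GFI1 or GFI1B, 3 were higher and 1 lower in GM-CSF (median -0.19). The higher ones were Tgfbr3, a TGF-beta co-receptor (1.44 ± 0.27, adjusted p = 2.55e-05), the cytokine signalling inhibitor Socs1 (0.70 ± 0.14, adjusted p = 4.49e-05) and Id1, an inhibitor of helix-loop-helix factors (0.60 ± 0.12, adjusted p = 0.000150), and the lower one was Meis1. In KO lines of the same clones, 2 were higher and 4 lower of 21, against 4.23% and 5.61% of all loci.

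Cell type lists described the clones, read against the same 5.77% and 6.68%. Of 10 early myeloid loci, 5 were lower in GM-CSF, among them Cd34 (-2.39 ± 0.29, adjusted p = 2.67e-11), Kit, the receptor for SCF (-1.76 ± 0.24, adjusted p = 2.74e-09), and Mpo, the myeloperoxidase gene (adjusted p = 6.99e-05), and 2 were higher, Ms4a3 (1.16 ± 0.21, adjusted p = 9.44e-06) and Spi1. Of 15 neutrophil loci, 5 were higher, led by the calprotectin genes S100a8 (2.09 ± 0.22, adjusted p = 1.62e-13) and S100a9 (2.31 ± 0.31, adjusted p = 1.58e-09), the granule gene Ngp (1.37 ± 0.22, adjusted p = 5.62e-07) and Ms4a3, and 2 were lower, Mpo among them. Of 12 monocyte loci, 2 were higher, among them Ly6c2 (1.74 ± 0.28, adjusted p = 3.94e-07), and 3 lower, among them Klf4 (-1.11 ± 0.22, adjusted p = 4.35e-05) and Ccr2 (-1.49 ± 0.33, adjusted p = 0.000339).

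The loci called in the erythroid, mast cell and lymphoid lists were all lower in GM-CSF. Of 9 erythroid and megakaryocyte loci, 2 were lower, the integrin gene Itga2b (-1.38 ± 0.22, adjusted p = 4.42e-07) and Tal1, and 0 were higher. Of 8 mast cell and basophil loci, 3 were lower, Gata2, the protease gene Cpa3 (-4.47 ± 0.55, adjusted p = 5.47e-11) and Mcpt8 (-0.90 ± 0.30, adjusted p = 0.0311). Of 7 lymphoid loci, 2 were lower, the B cell factors Ebf1 (-1.51 ± 0.24, adjusted p = 2.14e-07) and Pax5 (-0.83 ± 0.27, adjusted p = 0.0263). None of the genes in these lists was at 0 counts over all libraries. The summed level of the erythroid and megakaryocyte list ran from 755 to 790 CPM in GM-CSF and from 799 to 1124 in SCF controls, and that of the mast cell list from 131 to 215 and from 147 to 354. The mast cell ranges overlapped between cytokines, and in KO lines the ranges of both lists overlapped. The median sums of both lists were lower in GM-CSF than in SCF, in control and in KO lines. What part these lists had in the result for the Gfi1b peaks was not tested.

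In the KO comparison within SCF clones, few list members were called, where 4.65% of all loci were higher and 1.52% lower. Among those called, the partner Sin3a (0.15 ± 0.05, adjusted p = 0.0453) was higher, as were the regulator Cebpa (0.19 ± 0.06, adjusted p = 0.0413) of 14 and Nfe2, an erythroid factor (0.18 ± 0.06, adjusted p = 0.0413), of 8. Of 20 reported targets, 0 were called by edgeR and 1 had an unadjusted p under 0.05. Of 10 neutrophil, 7 monocyte, 6 mast cell and 4 lymphoid loci 0 were called, with 1, 2, 1 and 0 at an unadjusted p under 0.05. In GM-CSF clones the 9 lists had 0 called loci.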

How the data were processed

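Bulk ATAC-seq libraries of 28 GMP clones, each with a control and a Tet2 KO line, were aligned by the authors with Bowtie2 to mm10 and then handled with SAMtools and Picard. No tool version was found in the sources read. The values are raw counts of reads in 297361 peaks of 301 bp, deposited by the authors without normalisation, the peaks being summits called by MACS2 on single-cell ATAC-seq together with ImmGen regions. Groups were taken from the treatment labels. Gene positions are from GENCODE vM21.

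CPM were counts divided by the library total and multiplied by 1e6. Loci were peaks within 10 kb of a gene's 5' end. Counts were tested with edgeR 4.0.16 in R 4.3.3 (quasi-likelihood test, TMM scaling, Benjamini-Hochberg adjustment over all features), for loci passing filterByExpr (minimum count 10) at adjusted p under 0.05 and for peaks with at least 50 counts at 0.01. KO fits had the clone as a block. Both lines of a clone share its number, and deviations of sister lines correlated with a median of 0.0684 over 24 SCF clones and 0.0522 over 4 GM-CSF clones. Differences between paralogues used log2 CPM with a prior count of 2 and permutation tests (exact, or 100000 draws). Intervals are exact at 95% and cover counting error only. The scripts were tested on simulated counts, where 53.9% of peaks changed by 2 and 75.5% of those changed by 3 on the log2 scale were recovered among 36026 peaks in the cytokine comparison of control lines. The simulation gave every peak the same spread beyond counting error, so these shares need not hold for the measured counts.

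Named peaks were those called and the 8 per gene with the highest mean CPM. Named list genes were up to 4 per list with the smallest p among those called between cytokines and up to 2 in the KO comparison. Other tested peaks were added after their values were seen. A called list gene of the KO comparison is not reported here. The lists were GMP and early myeloid progenitor, GFI1 partners in the LSD1 and CoREST complexes, regulators of Gfi1 and Gfi1b, reported targets, erythroid and megakaryocyte, neutrophil, monocyte and macrophage, mast cell and basophil, and lymphoid. Members and lists were chosen with earlier results of these data known. Alternatives were DESeq2 1.42.0, library totals, other windows, filters and prior counts, the promoter share as a covariate, clone subsets, leaving out each GM-CSF clone and fits without the block. Alternatives for the paralogue difference in KO lines, peak fits in KO lines and peak fits with clone subsets, summed clones, library totals or the promoter share were added after seeing the data.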

Additional observations from a re-analysis of the deposited data

Results flagged for a closer look

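In 42 groups of 4 GM-CSF libraries, 1 library stood apart from the other 3 by Dixon's criterion in 11 cases, where chance gives about 1 in 20 groups, and where a group with 3 libraries at 0 meets the criterion with any count in the last. In control lines these were 1.30 CPM of clone 22 at the -33.2 kb peak of Gfi1, from 1 count, and 26.1 CPM of clone 19 at the 24.7 kb peak of Gfi1b, from 3 counts. In KO lines around Gfi1 they were 203 CPM of clone 20 over the 60 kb window and 32.0 CPM of clone 21 at the 26.9 kb peak, both below the other lines, and 11.4 CPM of clone 22 at 38.0 kb, 4.27 CPM of clone 21 at 7.8 kb and 8.53 CPM of clone 21 at -33.2 kb, all above them. In KO lines around Gfi1b they were 18.3 CPM of clone 22 at 30.2 kb, 48.9 CPM of clone 19 at 24.7 kb, 4.57 CPM of clone 22 at 23.9 kb and 24.5 CPM of clone 19 at 22.6 kb, the last from 1 count. All peak values but that at 26.9 kb, which had 15 counts, came from 8 counts or fewer.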

How the results depend on the processing

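The -33.2 kb peak of Gfi1 and the 22.6 kb peak of Gfi1b were called under each alternative run. Called Gfi1 peaks fell from 2 to 1 within 30 kb and ranged from 1 to 3 when 1 GM-CSF clone was left out. Called Gfi1b peaks fell from 3 to 1 with DESeq2 and ranged from 1 to 3. Without clone 22, 383 peaks were higher and 804 lower over the whole table, against 1623 and 2342. DESeq2 called 1014 and 991. For KO in SCF, the count over all peaks went from 78 higher and 6 lower to 175 and 22 with filterByExpr, to 166 and 1 with DESeq2, and to 0 and 0 with at least 20 counts or clones 23 to 29 alone.

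The Gfi1 locus lost its cytokine call in control lines with DESeq2 (0.44), library totals (0.45), windows of 1 kb (0.080) and 60 kb (0.16) and clones 23 to 29 (0.45), and ranged from 0.34 to 0.56 with 1 GM-CSF clone left out. In KO lines it lost it with windows of 1 kb (0.36) and 60 kb (0.34) and ranged from 0.41 to 0.81. The Gfi1b locus gained a call with windows of 1 kb (-1.49, KO lines -2.04) and 60 kb (-0.62, KO lines -0.89). It ranged from -0.16 to 0.0035 in control lines, turning sign without clone 20. The Gfi1 minus Gfi1b difference passed 0.05 with windows of 1 kb (1.53) and 60 kb (0.70) and in KO lines (1.34), and ranged from 0.28 to 1.05. In KO lines it ranged from 0.83 to 1.60 with 1 GM-CSF clone left out, and passed 0.05 under all alternatives run, which were chosen after seeing the data. The cause of these changes was not tested.

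Signs turned only for values that were not called. KO in SCF became 0.050 (60 kb) and 0.033 (clones 23 to 29) at Gfi1, 0.010 (60 kb) at Gfi1b and -0.022 (1 kb) for the paralogue difference. KO in GM-CSF at Gfi1 ranged from -0.15 to 0.34 and its difference from SCF from -0.12 to 0.37. The correlation of the paralogues became 0.020 (60 kb), and that of Gfi1b sister lines -0.10 (clones 1 to 18). That of Gfi1 sister lines passed 0.05 in clones 23 to 29 (0.99, or 0.93 without clone 27, a choice made after seeing the data). Without the replicate block, KO in SCF was -0.05 at Gfi1 and -0.16 at Gfi1b, KO in GM-CSF 0.17 and -0.30, their difference 0.21 and -0.16, the paralogue difference 0.12 and the called peaks 0 and 0, and the block changed no call. With clones 19 and 20 summed, or clone 13 left out, no call changed. DESeq2 gave no adjusted p to any member peak, or to the Gfi1b locus, for KO in SCF. With 1 count worth 8.70 CPM or more in clones 19 and 20, depth limits single peaks in GM-CSF.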
